A study of Homo sapiens with 4 samples.

Results

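CTGF siRNA was compared with control siRNA in MDA-MB-231 cells that were all treated with kahweol. MDA-MB-231 is a human triple-negative breast cancer cell line with mesenchymal features, and kahweol is a coffee diterpene. Used here were 2 of the study's 4 RNA-Seq libraries: siControl+kahweol and siCTGF+kahweol, 1 library on each side, both kept with 50 µM kahweol for 48 h in serum-free medium. The siCTGF and siControl libraries without kahweol are given beside them. No vehicle is stated for the untreated cells, and the study had 1 siRNA to CTGF and 1 control siRNA, so effects of lower CTGF and other effects of either siRNA cannot be told apart. Of the 35993 genes in the table, 16599 were compared, those whose counts averaged 10 or more across all 4 libraries. With 1 library a side, a fold change between 2 libraries has no test. Its 95% counting interval is an exact Clopper-Pearson interval that covers counting error only and not variation between cultures.

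CTGF (gene symbol CCN2) is a secreted matricellular protein of the CCN family that binds integrins and growth factors. Its gene is a classic target of YAP and TAZ, coactivators that enter the nucleus when cells spread or their actin is under tension and that bind DNA through the TEAD factors. ANKRD1, which encodes an ankyrin repeat protein of muscle and nucleus, is another target of this kind. In breast cancer cells, CTGF is known for its links to adhesion, the matrix and migration.

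The upstream sequences of these 2 genes are shown because their RNAs had the lowest log2 fold changes of the YAP/TAZ targets with kahweol. CCN2 is the gene that the siRNA targets, so its low value was set by the design and carries no information on TEAD factors. They are the 250 bases before the start site, taken from RefSeq (GRCh38.p14) and written along the gene's strand. Capitals mark GGAATG, the core that TEAD factors bind. CCN2 (chr6:131951373-131951622, minus strand) held it 169, 104 and 95 bases before the start site, and ANKRD1 (chr10:90921088-90921337, minus strand) 220 and 128 bases before it.
CCN2: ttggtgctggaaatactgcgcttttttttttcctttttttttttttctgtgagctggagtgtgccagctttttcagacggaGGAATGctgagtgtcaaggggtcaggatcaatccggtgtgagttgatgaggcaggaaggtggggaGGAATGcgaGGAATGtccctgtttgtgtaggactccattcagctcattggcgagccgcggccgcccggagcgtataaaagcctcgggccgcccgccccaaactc
ANKRD1: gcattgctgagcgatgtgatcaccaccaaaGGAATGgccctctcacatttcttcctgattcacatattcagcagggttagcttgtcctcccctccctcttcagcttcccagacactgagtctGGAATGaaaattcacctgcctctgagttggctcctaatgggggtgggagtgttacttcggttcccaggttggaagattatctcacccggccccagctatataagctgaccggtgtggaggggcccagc
GGAATG or its reverse complement CATTCC stood in 8 of 18 such windows of 16 YAP/TAZ target genes (44.4%) and in 11.9% of the 35116 windows of all genes. A match in these letters is a description and not a measured binding site.

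The total count was 44781516 in siControl+kahweol and 47276653 in siCTGF+kahweol, and 20000 and 21029 genes had at least 1 count. The share of mitochondrial rRNA was 4.33% and 6.01%, and that of small noncoding RNAs 3.59% and 3.85%. All 10 markers of the line passed the filter, among them VIM, the mesenchymal intermediate filament, at 2549 and 3255 CPM (counts relative to the TMM-scaled library total). VIM was higher in siCTGF+kahweol, while 8 of the 10 markers were lower there (median log2 fold change -0.16). Of 5 genes expected to be low in this line (ESR1, PGR, ERBB2, GATA3 and FOXA1), 4 passed the filter. Those 4 summed to 56.5 and 61.7 CPM, and 1 of them averaged 100 counts or more. The receptor genes ESR1 and PGR lay below 1 CPM or under the filter. Of the fibroblast, leukocyte and endothelial markers, 3 of 9, 4 of 7 and 4 of 5 passed it. CD68, a lysosomal protein of macrophages, made up most of the leukocyte list at 40.6 and 60.6 CPM, while PTPRC, the pan-leukocyte marker, did not pass. Cell number and RNA per cell cannot be told apart in these bulk libraries.

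CTGF itself was lower in siCTGF than in siControl cells, and more so with kahweol than without. CCN2 (gene ID 1490, chromosome 6 from 132269316 to 132272512 in GRCh37, minus strand) had 186 CPM in siControl+kahweol and 31.8 CPM in siCTGF+kahweol, beside 159 and 63.6 CPM in the untreated libraries. Its log2 fold change was -2.55 with kahweol (95% counting interval -2.67 to -2.44) and -1.32 without (-1.40 to -1.24). The difference between the pairs was not tested, since it needs replicates. The additive fit, edgeR's quasi-likelihood test over all 4 libraries with kahweol as a covariate, gave -1.93 (SE 0.25, adjusted p = 0.055), which missed the threshold of 0.05. With limma-voom it passed (adjusted p = 0.0144) and with DESeq2 it did not (adjusted p = 0.166).

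Over all genes, 2441 (14.7%) were over a fold change of 1.3 with kahweol and 1299 (7.83%) were under 0.7. The untreated pair had 1598 (9.63%) over and 1493 (8.99%) under. The additive edgeR fit called 11 genes higher (0.0663%) and 10 lower (0.0602%), and 851 and 794 at an unadjusted p under 0.05. The shares past the fold thresholds depended on the count: with kahweol, 40.9% of genes with a mean count of 10 to 30 were over 1.3 and 25.3% were under 0.7, against 2.69% and 0.578% at 3000 or more. Of the 12595 genes whose counts averaged 100 or more, 8.03% were over and 3.16% under. Protein-coding genes had a median log2 fold change of -0.01 with 11.3% over 1.3, long noncoding RNAs a median of 0.15 with 36.1% over, and snoRNAs and guide RNAs a median of 0.46 with 54.2% over.

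**Figure D1:**
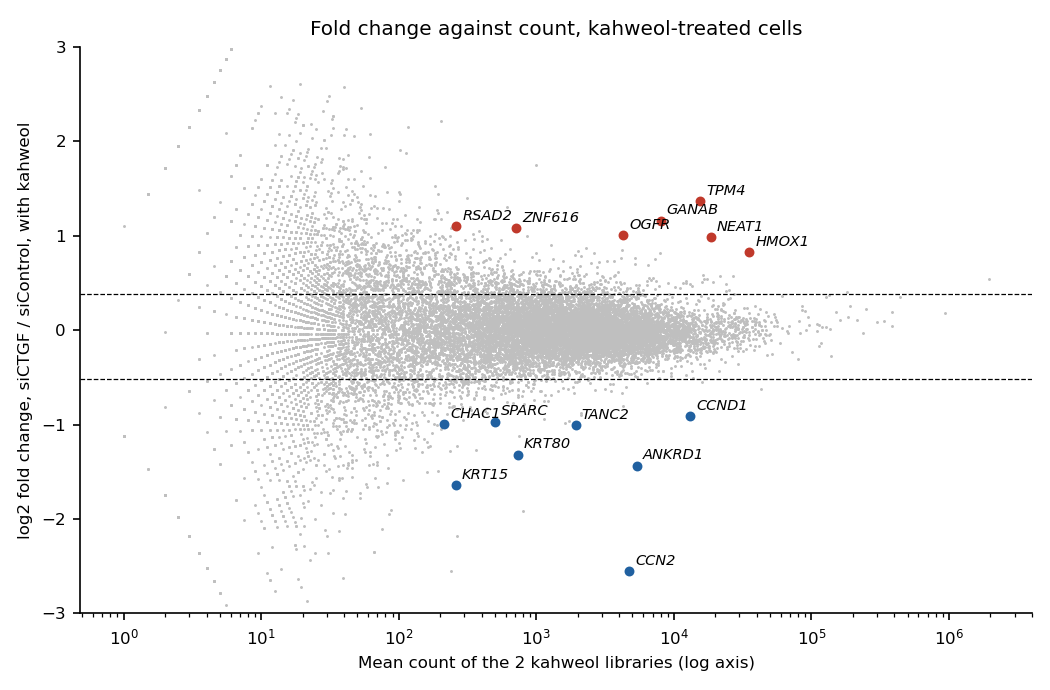
Log2 fold change of siCTGF+kahweol against siControl+kahweol (y axis) by the mean count of both libraries (x axis, log scale), 1 gray point per gene. Dashed lines mark fold changes of 1.3 and 0.7, 151 genes lie beyond the y axis, and CCN2 stands at -2.55 among genes of like count.

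Most other targets of YAP and TAZ lay slightly lower with kahweol. Of the 22 that passed the filter, 19 were below 0, none was over a fold change of 1.3 and 3 were under 0.7: CCN2, ANKRD1 and TGFB2. The 3 made up 13.6% of the list, beside 7.83% of all genes. These counts include CCN2, which the siRNA targets, so its fall was set by the design. The median was -0.21 with kahweol and -0.05 without, against 0.004 and -0.007 over all genes. ANKRD1 (gene ID 27063, chromosome 10, 92671857 to 92681032) had 181 CPM in siControl+kahweol and 67.0 CPM in siCTGF+kahweol, a log2 fold change of -1.43 (-1.52 to -1.35), and 453 and 303 CPM without kahweol (-0.58). TGFB2, a ligand of the TGF-beta receptors, went from 26.3 to 18.2 CPM with kahweol (-0.53, interval -0.72 to -0.34). CCN1, the closest relative of CTGF and named after its values were seen, was at 71.2 and 58.5 CPM with kahweol (-0.28) and at 70.8 and 119 CPM without (0.75). None of the 22 passed the additive edgeR fit (adjusted p = 0.12 for ANKRD1), and 4 had an unadjusted p under 0.05, all lower, CCN2 among them. The 2 that limma-voom called were CCN2 and ANKRD1, and DESeq2 called none.

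**Figure D2:**
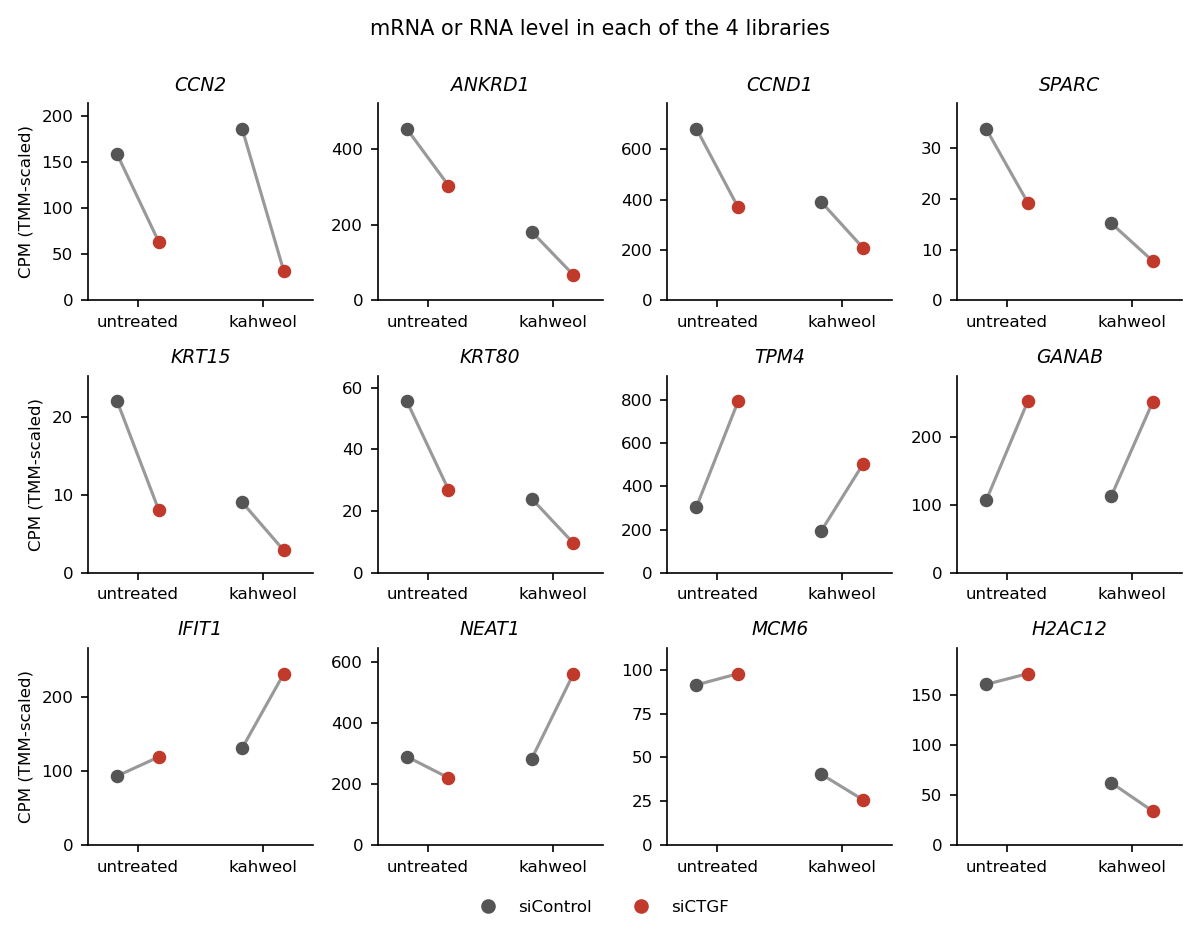
Level (y axis, TMM-scaled CPM, each axis starting at 0) of 12 genes in the 4 libraries, 1 point per library, with siControl in gray and siCTGF in red. CCN2 went from 186 to 31.8 CPM with kahweol, while NEAT1, MCM6 and H2AC12 had opposite directions in the untreated and kahweol pairs.

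Among the 11 genes that rose with CTGF siRNA in the additive fit, TPM4 and GANAB had the highest fold changes outside read-through loci. TPM4 is a tropomyosin that runs along actin, and GANAB trims glucose from glycoproteins in the endoplasmic reticulum. TPM4 (chromosome 19, 16178348 to 16213812) had 195 and 504 CPM in siControl+kahweol and siCTGF+kahweol, and its log2 fold changes of 1.37 with and 1.38 without kahweol differed by less than their counting intervals (edgeR adjusted p = 0.00079). GANAB (chromosome 11, 62392298 to 62414198) had 112 and 251 CPM with kahweol (1.16) and 106 and 252 CPM without (1.25, edgeR adjusted p = 0.0037).

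The opioid growth factor receptor gene OGFR rose as well, from 64.7 to 130 CPM with kahweol (1.01) and from 65.8 to 107 CPM without (0.71). ADAM15, a membrane metalloprotease with a disintegrin domain, had log2 fold changes of 0.69 and 0.61. GNPDA1, a glucosamine-6-phosphate deaminase, had 0.76 and 0.63. Further genes that rose were MESD, a chaperone of LDL receptor relatives, ZDHHC16, a palmitoyltransferase, and the zinc finger genes ZNF267 and ZNF761, with log2 fold changes between 0.64 and 0.87 with kahweol and adjusted p = 0.046 each from edgeR. ZNF761 shares its locus with a read-through gene.

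Cyclin D1 (CCND1), which carries cells from G1 into S phase, fell from 390 to 208 CPM with kahweol, a log2 fold change of -0.91 (interval -0.96 to -0.85), and from 682 to 370 CPM without (-0.88). SEPTIN8, a septin of the cortical cytoskeleton, was at 52.4 and 27.0 CPM with kahweol (-0.96). DHTKD1, a mitochondrial dehydrogenase subunit of lysine breakdown, was at 49.5 and 25 CPM (-0.99). CCND1 and DHTKD1 had adjusted p = 0.0062 and adjusted p = 0.025 in the edgeR fit. The remaining calls were 6 read-through genes, which join 2 neighboring loci and share reads with both: DNAAF4-CCPG1 (higher, with no count in either siControl library) and DUS4L-BCAP29, C8orf44-SGK3, ZFP91-CNTF, LY75-CD302 and BIVM-ERCC5 (lower). BIVM-ERCC5 had 9.33 CPM in siControl+kahweol and none in the other libraries, while the parent genes BIVM and ERCC5 had log2 fold changes of 0.59 and 0.31. LY75-CD302 was at 0 in both kahweol libraries, so it carries no information on this comparison.

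Among keratins, the intermediate filaments of epithelia, 2 fell and the others did not pass the test. KRT15, a keratin of basal cells, fell from 9.03 to 2.86 CPM with kahweol and from 22.0 to 8.02 CPM without, log2 fold changes of -1.65 (interval -2.08 to -1.23) and -1.45 (edgeR adjusted p = 0.037). KRT80, a keratin of differentiating epithelia, fell from 24.0 to 9.60 CPM and from 55.6 to 26.9 CPM, -1.32 and -1.04 (edgeR adjusted p = 0.025). The simple-epithelial keratins, named after their values were seen, stayed between the thresholds: KRT8 -0.19, KRT18 0.09, KRT19 -0.24 and KRT7 0.08. In all, 5 of 18 keratins were under 0.7 (27.8%) and 4 over 1.3 (22.2%) with kahweol, beside 7.83% and 14.7% of all genes. Among the 11 keratins averaging 100 counts or more, 3 were under and 1 over, beside 3.16% and 8.03% of all such genes.

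In the matrix, SPARC, a collagen-binding matricellular protein, was lower and 6 of 28 collagens were over a fold change of 1.3. Neither SPARC nor any of these collagens passed the edgeR test. SPARC was at 15.2 CPM in siControl+kahweol and 7.75 CPM in siCTGF+kahweol, a log2 fold change of -0.97 (-1.25 to -0.70), and at 33.8 and 19.3 CPM without kahweol (-0.81). It missed the threshold with edgeR (adjusted p = 0.055) and passed it with DESeq2 (adjusted p = 0.00138) and limma-voom (adjusted p = 0.0375). Of 28 collagen genes, 6 were over 1.3 (21.4%) and 2 under 0.7 (7.14%) with kahweol, beside 14.7% and 7.83% of all genes. Without kahweol, 1 was over and 8 under. No collagen was called by edgeR, DESeq2 or limma-voom, and 2 had an unadjusted edgeR p under 0.05. COL7A1, the collagen of anchoring fibrils, was at 63.4 and 93.0 CPM with kahweol (0.55) and at 80.8 and 52.0 CPM without (-0.64). COL5A1, a fibril-forming collagen, had 0.62 and -0.29, and COL17A1, the transmembrane collagen of hemidesmosomes, had 0.69 and -0.21. The chain genes of basement membrane collagen, named after their values were seen, were at 84.5 and 104 CPM with kahweol for COL4A1 (0.30) and at 243 and 239 CPM for COL4A2 (-0.03). COL4A4 was at 2.18 and 1.69 CPM, and its interval of -1.0 to 0.30 held 0. COL11A1 did not pass the filter, with 0 and 5 counts in siControl+kahweol and siCTGF+kahweol.

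The collagen genes are rich in GC (median 57.4%), and fold changes moved with GC content in opposite directions in the 2 pairs. In genes averaging 100 counts or more, split by GC content into 5 equal groups, the median log2 fold change went from -0.05 in the lowest group to 0.10 in the highest with kahweol, and from 0.03 to -0.07 without. With these trends and those of transcript length removed, the collagen median moved from 0.14 to 0.01 with kahweol and from -0.29 to -0.23 without. The part of GC content in these values was not tested further.

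Other adhesion groups were mostly between the thresholds. Of 36 genes of the focal adhesion plaque, 3 were over 1.3 (8.33%) and none was under 0.7, beside 14.7% and 7.83% of all genes. Their median was 0.001 and was negative in 5 of the 6 other settings. LPP, a LIM protein of the plaque, was at 47.7 and 63.5 CPM with kahweol (0.41) and had 0.64 without, and it was called higher by DESeq2 (adjusted p = 0.00386) and limma-voom (adjusted p = 0.0472) and not by edgeR (adjusted p = 0.14). NEDD9, a scaffold that focal adhesion kinase binds, was at 1.48 and 3.22 CPM with kahweol (1.10, interval 0.51 to 1.78) and had -1.21 without. Vinculin (VCL), which ties talin to actin, was at 252 and 206 CPM with kahweol (-0.29, interval -0.35 to -0.23). Focal adhesion kinase (PTK2) was at 164 and 167 CPM (0.03, interval -0.04 to 0.10). Of 22 integrins, 5 were under 0.7 (22.7%) and 1 over 1.3 (4.55%), beside 7.83% and 14.7% of all genes. ITGB2, the beta chain of leukocyte integrins, was at 5.30 and 2.23 CPM with kahweol (-1.24, interval -1.74 to -0.74), and the other 4 under 0.7 were below 1.5 CPM. The main beta chain ITGB1, named after its values were seen, had -0.25. MYLK, the kinase of myosin light chain, was at 35.2 and 21.0 CPM (-0.75). Of 44 actomyosin genes, 2 were over 1.3 and 2 under 0.7 (4.55% each), beside 14.7% and 7.83% of all genes. Among them, TPM4 alone was called by edgeR, while DESeq2 and limma-voom also called MYLK. Of 31 matrix proteases and inhibitors, 7 were over (22.6%) and 3 under (9.68%), beside 14.7% and 7.83% of all genes. MMP3, stromelysin 1, was at 2.48 and 6.06 CPM (1.28, interval 0.81 to 1.75) and MMP9, gelatinase B, at 2.78 and 4.73 CPM (0.76). MMP1, the interstitial collagenase, was at 47.6 and 63.4 CPM with kahweol (0.41) and its log2 fold change was 0.64 without (adjusted p = 0.13 with edgeR, adjusted p = 0.103 with limma-voom and adjusted p = 0.0437 with DESeq2, which called it higher).

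Of the genes that respond to ERK signaling, CCND1 alone passed the additive fit. Of 27 measured, 5 were over 1.3 (18.5%) and 2 under 0.7 (7.41%) with kahweol, close to the 14.7% and 7.83% of all genes. Without kahweol, none was over and 1 under. HMGA2, a chromatin protein of mesenchymal tumors, was at 29.6 and 18.9 CPM (-0.64), and the immediate-early genes JUNB (0.51) and IER2 (0.50) lay on the other side. The kinase mRNAs were between the thresholds with kahweol: MAPK3 -0.06, MAPK8 -0.18, MAPK14 0.10, PIK3CA 0.08 and AKT1 0.25. The regulatory subunit gene PIK3R3 was under 0.7 at 31.9 and 22.0 CPM (-0.53). RNA levels carry no information on the phosphorylation of these kinases.

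Genes of DNA replication and histones were lower in siCTGF than in siControl cells with kahweol and not without. Of 46 replication genes, 40 were below 0 with kahweol (median -0.22) and 18 without (median 0.04). Only MCM6 and GINS2 were under a fold change of 0.7 with kahweol (4.35%, beside 7.83% of all genes). MCM6, a subunit of the replicative helicase, was at 40.4 CPM in siControl+kahweol and 25.8 CPM in siCTGF+kahweol (-0.64, interval -0.80 to -0.49), and at 91.4 and 97.8 CPM without kahweol. GINS2, part of the same helicase complex, was at 15.8 and 10.4 CPM with kahweol (-0.60) and at 34 and 39.5 CPM without. Both genes had lower levels with kahweol than without under either siRNA.

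Replication-dependent histone genes, which are transcribed in S phase, had the lowest median of the lists with 10 or more members. Of 49 measured, 45 were below 0 with kahweol (median -0.36) and 8 without (median 0.13). With kahweol, 9 were under 0.7 (18.4%, beside 7.83% of all genes) and 1 over 1.3. H2AC12, an H2A gene of the histone cluster on chromosome 6 (from 27114861 to 27115341), was at 62.5 and 34 CPM with kahweol (-0.88, interval -1.01 to -0.75) and at 161 and 172 CPM without (0.09). H2AC4, at 22.4 and 14.3 CPM (-0.65), and H3C3, at 87.6 and 57.0 CPM (-0.62), were next among those averaging 100 counts or more. The 1 member over 1.3, H2BC7, named after its values were seen, was below 1 CPM in both kahweol libraries. Several histone genes are near-identical copies whose reads the counting could split, and without the GC and length trends the median was -0.47. Mitotic genes lay in the same direction with smaller values: 38 of 43 were below 0 with kahweol (median -0.14) and 21 without (median 0.00). KIF18B, a kinesin of the spindle, was at 41.8 and 28.8 CPM (-0.54), and MKI67, the proliferation antigen Ki-67, named after its values were seen, at 202 and 149 CPM (-0.44). No gene of these 3 lists was called by edgeR, DESeq2 or limma-voom in the additive fit, which averages over untreated and kahweol-treated cells, and 3 replication genes, 1 histone and 4 mitotic genes had an unadjusted edgeR p under 0.05, all lower. The difference between the pairs was not tested.

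**Figure D3:**
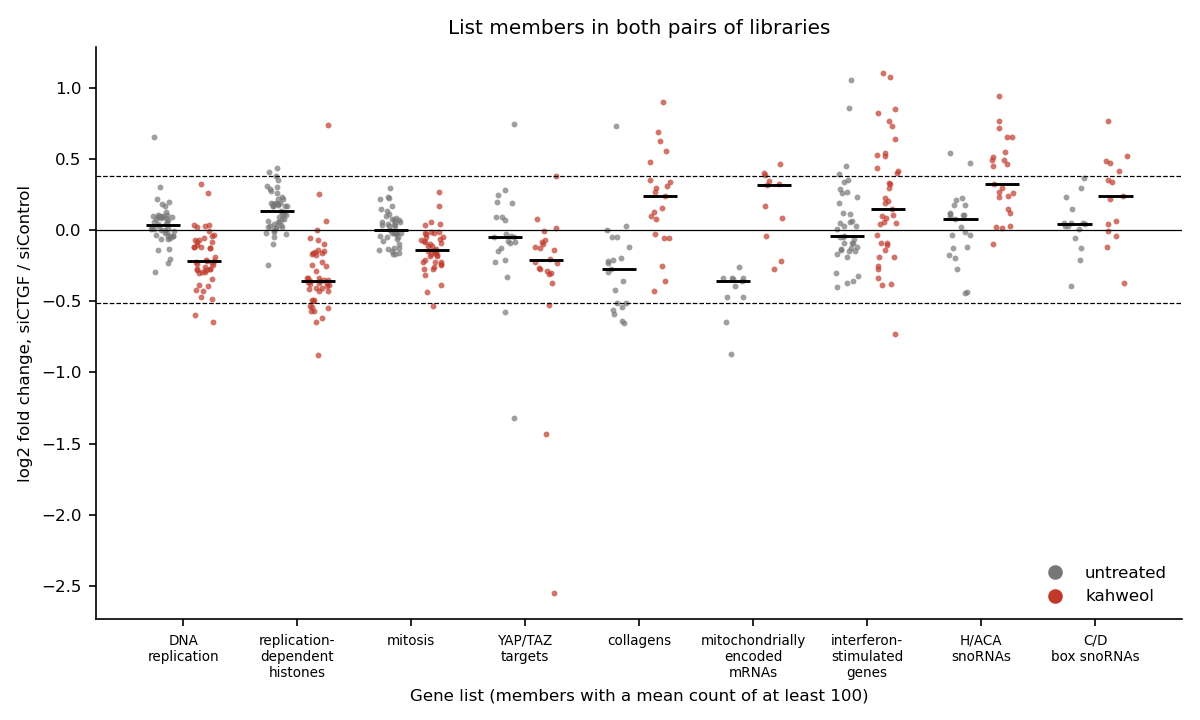
Log2 fold change of siCTGF against siControl (y axis) for each member of 9 gene lists averaging 100 counts or more, untreated in gray and kahweol in red, with black bars at the medians and dashed lines at fold changes of 1.3 and 0.7. Replication genes, histones and mitotic genes lie lower with kahweol than without, and snoRNAs, collagens and mitochondrial mRNAs higher.

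Interferon-stimulated genes, the antiviral program that interferons switch on through STAT and IRF factors, included many higher values with kahweol. Of 41 measured, 14 were over 1.3 (34.1%) and 2 under 0.7 (4.88%), with a median of 0.15. The shares of all genes were 14.7% and 7.83%. Without kahweol, 4 were over and 1 under (median -0.04). All 4 that were over 1.3 without kahweol were also over it with kahweol. RSAD2, the antiviral enzyme viperin, was at 3.78 CPM in siControl+kahweol and 8.16 CPM in siCTGF+kahweol (1.10, interval 0.72 to 1.5). IFI27 was at 3.71 and 7.86 CPM (1.08), and OASL, a relative of the oligoadenylate synthetases, at 68.8 and 124 CPM (0.85, interval 0.76 to 0.94). IFIT1, a sensor of viral RNA caps named after its values were seen, was at 131 and 232 CPM with kahweol (0.82) and at 93.6 and 119 CPM without (0.35). ISG15, a ubiquitin-like modifier chosen in the same way, was at 231 and 332 CPM with kahweol (0.53). No member was called by the additive edgeR fit (adjusted p = 0.55 for OASL), an unadjusted p under 0.05 was reached by 10 higher and 2 lower, and DESeq2 called 3 and limma-voom 1 higher.

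The 150 bases before the start sites of IFIT1 (chr10:89392473-89392622, plus strand) and ISG15 (chr1:1013347-1013496, plus strand) are shown from RefSeq (GRCh38.p14) as examples of this list. Capitals mark 2 blocks of GAAA, or of TTTC on the other strand, with 2 bases between them, the core of the element that STAT and IRF factors bind. The matches began 116 and 103 bases before the start site in IFIT1 and 113 and 107 bases before it in ISG15, where they overlap.
IFIT1: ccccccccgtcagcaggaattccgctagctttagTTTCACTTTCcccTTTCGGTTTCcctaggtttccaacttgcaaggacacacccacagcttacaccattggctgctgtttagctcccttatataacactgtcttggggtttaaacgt
ISG15: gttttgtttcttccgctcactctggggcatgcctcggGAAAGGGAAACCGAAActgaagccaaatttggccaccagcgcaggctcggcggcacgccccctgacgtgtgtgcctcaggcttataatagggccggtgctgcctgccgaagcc
Within 250 bases before the start site, 25 of 43 windows of 33 interferon-stimulated genes held this pattern (58.1%), against 3.02% of the 35116 windows of all genes.

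Noncoding RNAs of the nucleus and nucleolus were often higher in siCTGF cells with kahweol. Of 107 C/D box snoRNAs, which guide ribose methylation of rRNA, 64 were over 1.3 and none was under 0.7 (median 0.49), against 20 and 12 without kahweol (median 0.03). Of 83 H/ACA snoRNAs, which guide pseudouridylation, 39 were over and 2 under (median 0.36). Their counts are low, with median mean counts of 30.2 and 48.8. The shares over 1.3 of 59.8% and 47.0% stand beside 40.9% of all genes averaging 10 to 30 counts and 30.3% of those averaging 30 to 100. Only 15 and 23 of them had a mean count of at least 100, with medians of 0.24 and 0.32 and 5 and 11 over 1.3. SNORD80 and SNORD81, both from introns of GAS5, were at 2.41 and 4.12 CPM (0.77, interval 0.28 to 1.3) and at 1.90 and 3.22 CPM (0.75), and the host GAS5, named after its values were seen, had 0.47 with and 0.46 without kahweol. With the trends of GC content and length removed, the C/D and H/ACA medians were 0.18 and 0.08. No snoRNA was called by edgeR, DESeq2 or limma-voom, and 1 had an unadjusted edgeR p under 0.05. These RNAs are among the shortest measured, and the part of RNA length in their values was not tested further.

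SNORD12B (chromosome 20 from 47896850 to 47896952 in GRCh37, plus strand) is shown as an example of a C/D box snoRNA. It was chosen after its values were seen, at 1.92 and 2.97 CPM with kahweol (0.62, interval 0.03 to 1.21). Its GENCODE 29 transcript of 91 bases is shorter than the GRCh37 span above, over which its reads were counted. The transcript carries box C (TGATGA) and box D (CTGA) near its ends, in capitals.
SNORD12B: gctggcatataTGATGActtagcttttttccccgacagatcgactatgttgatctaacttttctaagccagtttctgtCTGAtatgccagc

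Of 27 abundant long noncoding RNAs, 10 were over 1.3 (37.0%, beside 14.7% of all genes) and 1 under 0.7 with kahweol (median 0.26). Without kahweol, 6 were over and none under (median 0.17). NEAT1 (chromosome 11, 65190269 to 65213011), the scaffold of nuclear paraspeckles, had 283 CPM in siControl+kahweol and 561 CPM in siCTGF+kahweol (0.98, interval 0.94 to 1.03), and at 289 and 220 CPM without kahweol (-0.39). KCNQ1OT1, an imprinted antisense RNA, was at 37.2 and 55.8 CPM with kahweol (0.59) and at 17.9 and 17.1 CPM without. MIR17HG, the host of the miR-17-92 cluster, was at 13.1 and 26.1 CPM with kahweol (0.99, interval 0.79 to 1.21) and at 14.1 and 16.8 CPM without. TALAM1, the antisense partner of MALAT1, was lower at 23.4 and 10.7 CPM (-1.12) while MALAT1 had 0.37, and the strand setting of the counting is not given in the sources used here.

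Mitochondrially encoded mRNAs were on opposite sides in the 2 pairs. Of 13, 10 were above 0 with kahweol (median 0.33) and all 13 below 0 without (median -0.40). With kahweol, 4 were over 1.3 (30.8%, beside 14.7% of all genes). Without it, 4 were under 0.7, beside 8.99% of all genes. None was called by edgeR, DESeq2 or limma-voom, and none had an unadjusted edgeR p under 0.05. ATP6, a subunit of ATP synthase, was at 4.52 and 6.24 CPM with kahweol (0.46, interval 0.07 to 0.84). COX1, a subunit of cytochrome oxidase named after its values were seen, was at 388 and 483 CPM with kahweol (0.32) and at 707 and 560 CPM without (-0.34). The mitochondrial rRNA RNR2, named in the same way, had the same signs (0.55 and -0.37), and its share of each library moved with these values. The nuclear genes of the respiratory chain had a median of -0.01, with 1 of 79 over 1.3 and none under 0.7.

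Stress genes had some high members rather than a common direction. HMOX1, the heme oxygenase that NRF2 switches on, was at 582 and 1030 CPM with kahweol (0.82, interval 0.79 to 0.86) and at 34.3 and 44.3 CPM without (0.37). It was called higher by DESeq2 (adjusted p = 8.1e-05) and limma-voom (adjusted p = 0.0321) and not by edgeR (adjusted p = 0.12). The 27 NRF2 targets had a median of -0.01, with 3 over 1.3 (11.1%) and 2 under 0.7 (7.41%), beside 14.7% and 7.83% of all genes. Besides HMOX1, those over were FTL at 3568 and 4730 CPM (0.41, and 0.36 without kahweol) and ME1 (0.42 and 0.58). In the additive fit, DESeq2 called 4 of the list higher and limma-voom 2, and neither called any lower. AKR1C2 (-0.72, and 0.28 without kahweol) and AKR1C3 (-0.52 and -0.42), aldo-keto reductases of the same list, were lower with kahweol. The near-identical heat shock genes HSPA1A and HSPA1B had 0.59 and 0.57, the only members of 18 over 1.3 (11.1%, beside 14.7% of all genes). Among 27 ATF4 targets, PPP1R15A, which reverses the stress brake on translation, was at 397 and 589 CPM (0.57), and CHAC1, a glutathione-degrading enzyme, was at 6.55 and 3.27 CPM (-1.0, interval -1.45 to -0.60). Of 18 BCL2 family genes, 5 were over 1.3 (27.8%, beside 14.7% of all genes) and none under 0.7 with kahweol (median 0.17), and none was past either threshold without. They included BAX, a pore former of mitochondria, at 18.4 and 25.4 CPM (0.46), and the BH3-only genes PMAIP1 at 141 and 191 CPM (0.44) and BMF at 4.63 and 6.51 CPM (0.49).

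Secreted signals were mixed. Of 23 cytokines and chemokines, 3 were over 1.3 (13.0%) and 4 under 0.7 (17.4%), beside 14.7% and 7.83% of all genes. CXCL1, a neutrophil chemokine, was at 5.77 and 2.86 CPM with kahweol (-1.0, interval -1.45 to -0.55) and at 41.2 and 39.9 CPM without, and CSF2 was at 5.14 and 2.95 CPM (-0.79). Of 27 semaphorins and plexins, guidance cues of axons and vessels, 5 were over (18.5%) and 3 under (11.1%). SEMA6C was at 1.99 and 4.12 CPM (1.04) and SEMA6A at 3.01 and 1.87 CPM (-0.68). Of 22 epithelial-mesenchymal transition genes, 11 were above and 11 below 0. E-cadherin (CDH1) was the 1 under 0.7, at 9.66 and 6.62 CPM (-0.54, interval -0.86 to -0.23). N-cadherin (CDH2), named after its values were seen, was the 1 over 1.3, at 0.0695 and 0.135 CPM (0.68, interval -2.58 to 4.13). Zinc finger genes of chromosome 19 had 37 of 221 over 1.3 (16.7%, beside 14.7% of all genes) and 5 under (2.26%), with a median of 0.08. The same count was over without kahweol (median 0.12). ZNF493 was the highest of those averaging 100 counts or more, at 2.11 and 6.15 CPM (1.53, interval 1.03 to 2.04), and ZNF616 (1.08) and ZNF554 (1.08) were at 10.4 and 22.0 CPM and at 3.5 and 7.43 CPM.

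Several basic groups had no member past either threshold with kahweol: 79 cytosolic ribosomal proteins (median 0.09, negative with TPM), 37 proteasome genes (-0.04), 20 cytosolic tRNA synthetases (-0.02), 17 fatty acid synthesis genes (0.06, negative with TPM and with the GC and length trends removed) and 11 tubulins (-0.08). Of 27 cholesterol synthesis genes, 4 were over 1.3 (14.8%, close to the 14.7% of all genes). Among them was INSIG1, the sterol-regulated brake of the pathway, at 106 and 139 CPM (0.39). It was called higher by DESeq2 and limma-voom and not by edgeR (adjusted p = 0.11).

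**Figure D4:**
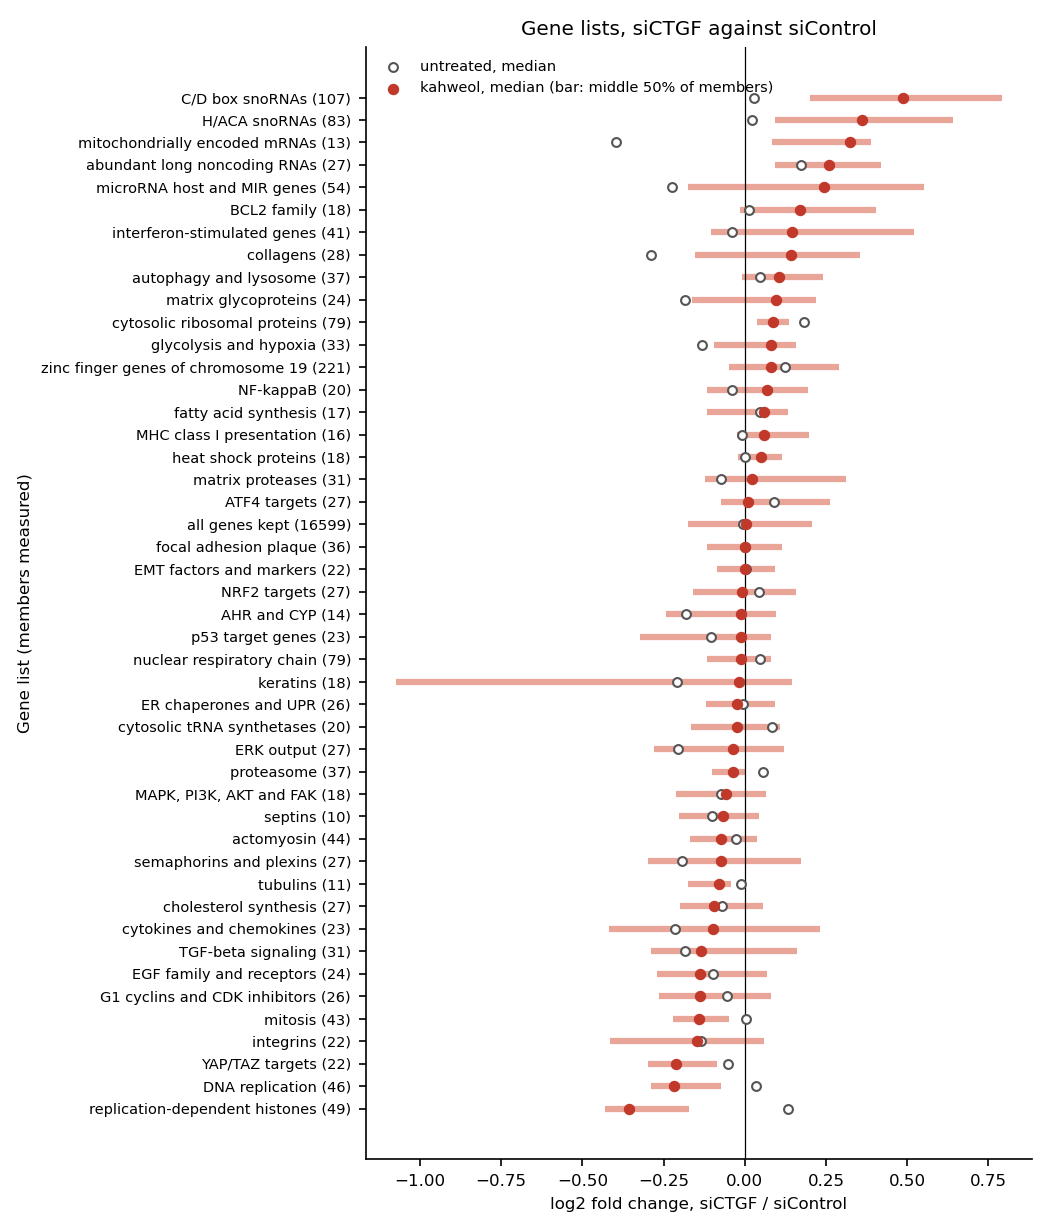
Median log2 fold change of siCTGF against siControl (x axis) for each gene list with at least 10 members measured (y axis, number in parentheses), with kahweol in red, untreated as open circles and bars for the middle 50% of members with kahweol. Histones stand lowest at -0.36 and C/D box snoRNAs highest at 0.49 with kahweol.

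The protein-coding genes with the largest fold changes included further single cases. PODXL2, a sialomucin of the cell surface, was at 5.70 and 11.9 CPM (1.05), and the IGF-binding relative IGFBPL1 at 5.21 and 10.6 CPM (1.01, and 1.12 without kahweol). TANC2, a scaffold protein, was at 59 and 29.4 CPM (-1.0, interval -1.14 to -0.87). BMP8B, a ligand of the BMP family, was at 7.71 and 3.15 CPM (-1.28), and the sodium-proton exchanger SLC9A3 at 6.32 and 3.04 CPM (-1.05). SLC9A3 overlaps the noncoding gene PP7080 on the same strand, which had 2.22, so how their shared reads were assigned bears on both. PIGY had the lowest value of these genes, at 24.5 and 1.04 CPM (-4.51), and shares its locus and strand with PYURF, which had 0.29.

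The untreated pair shares no library with the kahweol pair, so their values can be set side by side. Of all 16599 genes, 9.63% were over 1.3 and 8.99% under 0.7 without kahweol. Of the 2441 genes over 1.3 with kahweol, 540 were over it without (22.1%, and 33.8% of the genes over 1.3 without). Of the 1299 under 0.7 with kahweol, 371 were under it without (28.6%, and 24.8% of those under 0.7 without). Another 437 of the 2441 and 241 of the 1299 were past the opposite threshold without kahweol. Of the 7885 genes averaging 1000 counts or more, 234 were over and 55 under without kahweol. With kahweol, 306 were over and 62 under. Of these, 54 and 15 were past the same threshold without kahweol, against 2 and 1 past the opposite threshold. TPM4, GANAB, CCND1 and KRT80 are of the first kind. Genes with large differences between the pairs were PLEKHG5, an exchange factor of RhoA, with 0.97 with and -0.45 without kahweol, and DLL4, a Notch ligand, with 0.50 and -1.38. PLEKHG5 overlaps TNFRSF25 on the same strand (0.53 and -1.05), so how shared reads were assigned bears on it. No test of these differences was possible.

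**Figure D5:**
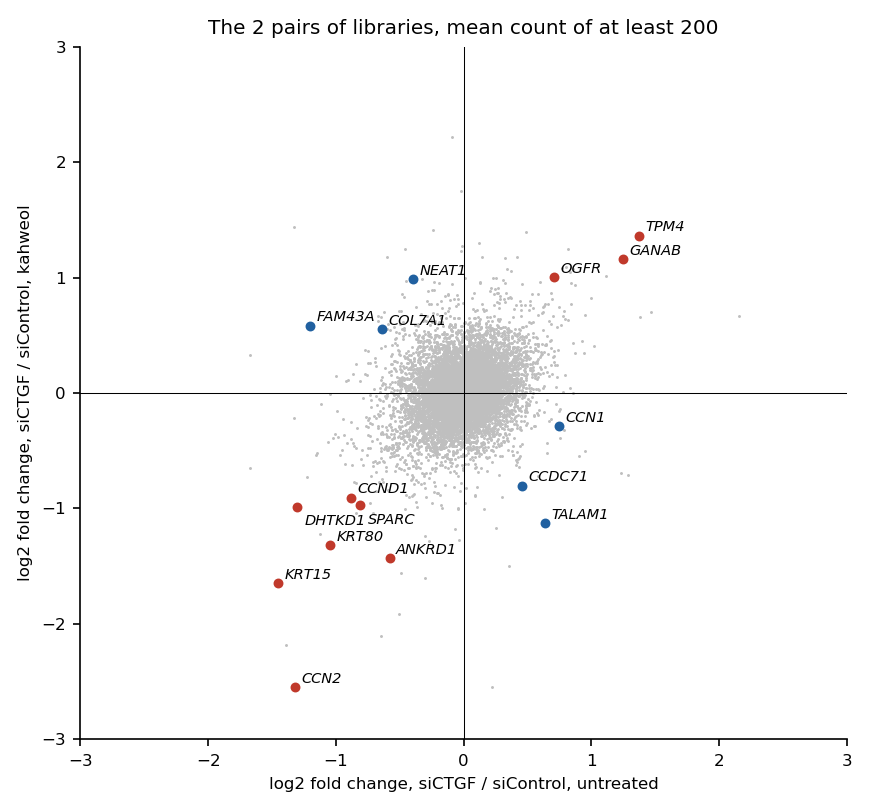
Log2 fold change of siCTGF against siControl without kahweol (x axis) and with kahweol (y axis) for the 11486 genes averaging 200 counts or more, of which 8 lie beyond the axes. Named genes with the same sign in both pairs are in red and those with opposite signs in blue, with CCN2 at -1.32 and -2.55.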

How the data were processed

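Total RNA of 4 cultures of MDA-MB-231 cells was sequenced as stranded, rRNA-depleted, paired-end libraries. The submitters' processing notes name FastQC 0.11.7, Trimmomatic 0.38, HISAT2 2.1.0, Bowtie2 2.3.4.1 and StringTie 2.1.3b with GRCh37. The estimated counts per gene were made by the authors, are not normalized and were deposited as whole numbers. FPKM and TPM, also deposited by the authors (StringTie), served as alternatives, and the coverage signal deposited by the authors was used to check the counts (104 to 106 aligned bases per count), so that 2 reads were taken as 1 fragment in the counting intervals.

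Counts were scaled by TMM in edgeR 4.0.16 (R 4.3.3) and log2 CPM was computed with a prior count of 2. Total counts of 44781516 to 59129784 leave counting intervals narrow at high counts and wide at low ones. The additive quasi-likelihood fit compared 2 libraries with 2, had 1 residual degree of freedom and used Benjamini-Hochberg adjustment over 16599 genes. It treats an siRNA-by-kahweol interaction as noise. How the 4 cultures relate is not given in the sources used here, so p-values measure only the spread between these samples. GC content and length came from the longest GENCODE 29 transcript (15277 genes, 92% of those compared), and their trends were removed by lowess (statsmodels 0.14.6, fraction 0.3). Promoter sequences came from RefSeq (GRCh38.p14). No coordinates were converted between builds.

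The comparison and the gene lists were chosen with earlier results of these data known. Genes were named by a rule: CCN2 and 11 genes of the study's text, the 12 highest and 12 lowest protein-coding genes by fold change with kahweol (mean count of at least 200 over the 2 kahweol libraries, no read-through gene or parent), up to 3 genes per list and direction past a fold change of 1.3 or 0.7 (mean count of at least 100), the 8 highest and 8 lowest by the difference between the pairs, 5 noncoding genes each way and all genes called by the additive fit. Of these 152 genes, those that matter are described, and some are not reported here. Genes outside the rule are marked. Alternatives were other scalings, units, filters, thresholds and tests (DESeq2 1.42.0, limma 3.58.1).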

Additional observations from a re-analysis of the deposited data

Results flagged for a closer look

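Of the genes named by the rule that averaged 200 counts or more both over the 4 libraries and over the kahweol pair, and that are neither read-through genes nor their parents, the following 11 were past the fold thresholds in opposite directions in the kahweol and the untreated pair. Genes with fewer counts, such as DLL4, are not among them. For each of the 11, the difference of its log2 fold changes (kahweol minus untreated) was not tested, since each pair has 1 library a side. COL7A1, the anchoring fibril collagen, differed by 1.19 (0.55 with and -0.64 without kahweol). FAM43A differed by 1.79 (0.58 and -1.20). VAMP1, a vesicle fusion protein, differed by 1.34 (0.67 and -0.67), the zinc finger gene ZNF789 by 1.33 (0.71 and -0.62) and LTB4R, a leukotriene receptor, by 1.3 (0.63 and -0.67). In the other direction, CCDC71 differed by -1.26 (-0.80 and 0.46) and the noncoding LINC02035 by -0.93 (-0.54 and 0.39). TALAM1 differed by -1.76 (-1.12 and 0.64) and lies antisense to MALAT1. PIGY (-4.96), HTD2 (-1.93) and PCDHGC3 (-1.26) each share their locus and strand with another gene (PYURF, RPP14 and the other gamma protocadherins), so how shared reads were assigned bears on them, which was not tested. The same limit holds for LTB4R, which overlaps LTB4R2 on its strand (0.42 with and -0.46 without kahweol).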

How the results depend on the processing

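The log2 fold change of CCN2 in the kahweol pair stayed between -2.59 and -2.52 under all 6 other scalings, units and corrections. How many genes passed the fold thresholds depended on the filter and the unit. There were 4583 over 1.3 and 2639 under 0.7 at a mean count of at least 1, 1028 and 389 at 100, 869 and 489 with log2(TPM + 1), and 620 and 216 with log2(FPKM + 1). With fold changes of 2 and 0.5 as thresholds there were 673 and 469. DESeq2 size factors, total counts and a prior count of 0.5 left both counts within 1.5 times. The additive fit called 69 genes higher and 62 lower with DESeq2, 32 and 28 with limma-voom, 35 and 40 with DESeq2 size factors in edgeR, and 56 and 47 at a mean count of at least 100. With no kahweol term in edgeR it called 0 and 0 (25 and 22 at an unadjusted p under 0.05). The cause of these differences was not tested. The log2 fold change of SOD2 in the kahweol pair turned from 0.49 to -0.034 with log2(TPM + 1) and to -0.0086 with log2(FPKM + 1), and no other named gene past a threshold changed sign. Of 52 list medians, 13 had the opposite sign under at least 1 of the 6 settings, all of them between -0.02 and 0.24 in the main setting. The GC and length correction was chosen after seeing the data. No paired analysis was possible because each group holds 1 library and the labels give no replicate numbers. Leaving out a library was not run, since it leaves a pair without one side.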

Other observations

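None of the genes named in these paragraphs passed the additive edgeR fit at an adjusted p under 0.05. Of 37 genes of autophagy and lysosomes, 27 were above 0 (median 0.10) and 1 was over a fold change of 1.3 (2.70%, beside 14.7% of all genes). This was LAMP1, a lysosomal membrane glycoprotein, at 257 CPM in siControl+kahweol and 356 CPM in siCTGF+kahweol (0.47, interval 0.42 to 0.52). Of 33 genes of glycolysis and hypoxia, PFKL, the liver-type phosphofructokinase, was at 33.0 and 58.9 CPM with kahweol (0.84) and at 111 and 135 CPM without (0.29). ALDOA, the aldolase of glycolysis, was at 230 and 325 CPM with kahweol (0.50) and had -0.28 without. It shares its locus and strand with LOC112694756, at 489 and 492.5 CPM with kahweol (0.01, and 0.10 without). How their shared reads were assigned bears on ALDOA and was not tested. CYP1B1, a cytochrome P450 under the aryl hydrocarbon receptor, was at 7.55 and 13.8 CPM with kahweol (0.87).

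The p53 target genes went both ways, with 2 of 23 over 1.3 and 2 under 0.7 (8.70% each, median -0.01). The shares of all genes were 14.7% and 7.83%. DDB2, a DNA damage sensor, was at 8.45 and 5.75 CPM with kahweol (-0.55), and its log2 fold change without kahweol was -0.57. E2F8, a repressor of the cell cycle program, was at 8.82 and 5.47 CPM (-0.68), and FGFR2, a receptor tyrosine kinase, at 3.15 and 1.55 CPM (-1.0). In the NF-kappaB list, SOD2, the mitochondrial superoxide dismutase, was at 450 and 633 CPM (0.49, below 0 with TPM and FPKM), and TRAF1, a signaling adaptor of TNF receptors, at 11.8 and 7.62 CPM (-0.63). MicroRNA host and MIR genes had 23 of 54 over 1.3 and 3 under 0.7 (median 0.24), but their counts are low, with a median mean count of 24.5, and 40.9% of all genes averaging 10 to 30 counts were over 1.3. The median was -0.09 with the GC and length trends removed.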
